A study of Mus musculus with 6 samples.

Results

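The Dpy19l genes encode membrane proteins of the endoplasmic reticulum related to the worm protein DPY-19. The 3 genes followed here were Dpy19l1, Dpy19l3 and Dpy19l4, out of 56748 gene IDs counted and 21849 genes tested in bone marrow-derived dendritic cells (BMDCs) from wild-type (WT) and Nfkb2-/- mice. They were chosen by family name because Dpy19l3 had one of the smallest p-values between these genotypes. That contrast therefore selected Dpy19l3, and its genotype values are given as a description, without a test. Dpy19l1 and Dpy19l4 came in through the name alone. Dpy19l2, the remaining gene of the family, had 0, 0 and 1 counts in the WT libraries and 10, 0 and 0 in the Nfkb2-/- libraries and was not tested. All 10 of its counts in the mutant cells lay in replicate 1.

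C-mannosylation links a mannose sugar by a carbon-carbon bond to tryptophan, most often the leading tryptophan of the short motif WxxW. The mannose comes from dolichol-phosphate-mannose, a lipid-bound donor on the luminal side of the endoplasmic reticulum that also feeds N-glycosylation, O-mannosylation and the synthesis of GPI anchors. DPY19L1 and DPY19L3 are C-mannosyltransferases that prefer different tryptophans of one motif row, DPY19L2 is known for its role in shaping the sperm head, and DPY19L4 is the least studied of the family. The main acceptors are thrombospondin type 1 repeats, found in matrix proteins, proteases of the ADAMTS group and complement proteins, and the WSxWS motif of class I cytokine receptors, which include the GM-CSF receptor and the IL-4 receptor that BMDC cultures depend on.

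Both groups were C57BL/6 bone marrow cells grown with GM-CSF and then with GM-CSF and IL-4, harvested without further stimulation and sequenced as polyadenylated RNA, with 3 libraries per genotype from independent cultures. The WT cells had intact Nfkb2, and the Nfkb2-/- cells came from mice lacking this gene, which encodes the p100 and p52 subunits of NF-κB, in every tissue and not in dendritic cells alone. Ages were not given in the sources used here. Nfkb2 had 215, 154 and 355 CPM (counts scaled to a common library size after TMM normalization) in WT and 44.8, 32.3 and 32.6 CPM in Nfkb2-/- replicates 1, 2 and 3, a log2 fold change of -2.72 (SE 0.33, edgeR quasi-likelihood test, adjusted p = 0.0307). Total counts ran from 29863927 to 55623068 per library. Nfkb2-/- replicate 1 stood apart from the other 5 libraries, with counts on 47952 gene IDs against 27692 to 33841. Some values that rest on it are also given without it, but those of neighbouring genes and of marker sums are not. Markers fixed for dendritic cells summed to 5736 to 10232 CPM in WT and 7516 to 8389 CPM in Nfkb2-/- cells, led by the MHC class II genes Cd74 and H2-Aa, and none of the 10 was at 0.

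All 3 genes lie on the minus strand of the mouse genome (GRCm38, GENCODE M21). Dpy19l3 (ENSMUSG00000043671) spans chr7:35685165-35754454, Dpy19l1 (ENSMUSG00000043067) spans chr9:24411776-24503140 and Dpy19l4 (ENSMUSG00000045205) spans chr4:11261315-11322137. Dpy19l2 (ENSMUSG00000085576), at chr9:24557047-24696293, lies on the same chromosome as Dpy19l1. The RefSeq promoter table (GRCm38.p6) held an entry for 2 of the 3 genes followed. The 250 bases upstream of their start sites are shown because one of these genes differed widely in level between genotypes that differ in an NF-κB subunit and the other did not. Capitals mark matches, on either strand, to the NF-κB consensus, to the GC box GGGCGGG and to the promoter element CCAAT. The windows, on the gene strand, are chr7:35754455-35754704 for Dpy19l3 and chr9:24503141-24503390 for Dpy19l1.
Dpy19l3: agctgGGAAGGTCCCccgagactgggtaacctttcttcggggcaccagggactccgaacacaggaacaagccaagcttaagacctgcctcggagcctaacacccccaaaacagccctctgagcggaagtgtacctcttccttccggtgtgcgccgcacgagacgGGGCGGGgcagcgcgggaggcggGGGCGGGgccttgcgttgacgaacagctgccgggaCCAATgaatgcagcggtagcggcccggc
Dpy19l1: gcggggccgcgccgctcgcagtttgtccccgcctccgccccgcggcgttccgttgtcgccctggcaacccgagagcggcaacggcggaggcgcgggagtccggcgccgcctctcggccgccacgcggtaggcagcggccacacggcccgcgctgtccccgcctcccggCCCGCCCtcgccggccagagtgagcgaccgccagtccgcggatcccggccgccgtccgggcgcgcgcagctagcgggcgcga
The Dpy19l3 window held 1 match to the NF-κB consensus on the strand opposite to the gene, 236 to 245 bases upstream, and 7.25% of the 32851 promoters of that length had at least one. It further held GGGCGGG at 57 to 63 and at 80 to 86 bases upstream, a motif in 23.4% of promoters, and CCAAT at 24 to 28 bases upstream, a motif in 33.8%. TATAAA, present in 12.4% of promoters, had no match in it. The Dpy19l1 window held 1 GGGCGGG match, on the opposite strand at 76 to 82 bases upstream, and none of the other 3 motifs. The GC content was 65.6% in the Dpy19l3 window and 80.8% in the Dpy19l1 window, against a median of 52.4% over all promoters, and 83.8% of promoters had a lower share than Dpy19l3. These are letter matches and show no binding.

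Reads of the family members could be told apart by sequence. Of the 50-base windows of their annotated transcripts, 0 were shared between any of the 4 family genes. Dpy19l1 shared none with any other gene, Dpy19l3 shared 34 of 11501 (0.296%) and Dpy19l4 shared 158 of 8329 (1.90%). Exons of Dpy19l3 and Dpy19l1 overlapped no exon of another gene, and 194 of the 8101 exonic bases of Dpy19l4 (2.39%) lay under the opposite-strand gene Gm26663. Gm26663 was not among the gene IDs counted, so no counts of its own can be set beside those of Dpy19l4. Use of strand in counting was not given in the sources used here. Whether reads of Gm26663 over these bases entered the Dpy19l4 counts is therefore unknown.

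Dpy19l3 mRNA was low in WT BMDCs and 14.8 times more abundant in Nfkb2-/- BMDCs. It had 105, 158 and 99 counts in WT replicates 1, 2 and 3 and 1852, 1720 and 2534 counts in Nfkb2-/- replicates 1, 2 and 3. Scaled to library size, these were 2.49, 4.86 and 3.41 CPM in WT and 54.7, 56.7 and 47.4 CPM in Nfkb2-/- cells. Every Nfkb2-/- library lay far above every WT library, and the 3 mutant libraries lay close to each other. WT cells averaged 3.59 ± 1.195 CPM and Nfkb2-/- cells 52.9 ± 4.89 CPM (SD, n = 3), and the fitted log2 fold change was 3.89 (SE 0.27). The coefficient of variation was 33.3% in WT and 9.24% in Nfkb2-/- cells. The value that selected the gene was its unadjusted p of 1.38e-06 in the edgeR fit over all genes, the second in order. It stood between Cdh17, a cadherin gene with a log2 fold change of 4.59, and Lpcat4, a lysophospholipid acyltransferase gene with one of 1.69, whose edgeR adjusted p-values were 0.0151 and 0.0236. Bulk RNA cannot tell fewer cells with a transcript from less of it per cell.

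Dpy19l1, the other well-described C-mannosyltransferase gene of the family, was not distinguishable between the genotypes. Its 3 WT libraries had 41.8, 62.9 and 25.3 CPM and its 3 Nfkb2-/- libraries 39.4, 55.9 and 55.7 CPM. The mutant values all fell inside the WT range, whose highest library was 2.49 times its lowest. Means were 43.3 ± 18.8 CPM (SD, n = 3) in WT and 50.3 ± 9.48 CPM (SD, n = 3) in Nfkb2-/- cells, with a log2 fold change of 0.22 (SE 0.33, edgeR adjusted p = 0.773). WT replicate 3, the lowest library for Dpy19l1, was also the lowest for the macrophage markers, and WT replicate 2 was the highest for both. The 10 macrophage markers summed to 994, 1149 and 160 CPM in WT and 658, 730 and 850 CPM in Nfkb2-/- replicates, led by Mrc1 and Csf1r, none of them at 0. Shares of all genes were 1.14% called by edgeR, 8.60% called by DESeq2 and 17.1% with an unadjusted p under 0.05. None of the 10 macrophage markers was called by edgeR or DESeq2 or had such a p. Their part in the Dpy19l1 values was not tested. Without WT replicate 3 the log2 fold change of Dpy19l1 was -0.05, and without WT replicate 2 it was 0.58, with adjusted p-values of 0.944 and 0.314 (edgeR).

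Dpy19l4 had the highest level of the family in all 6 libraries, and its genotype means were close. It had 126, 126 and 110 CPM in WT and 85.9, 131 and 126 CPM in Nfkb2-/- replicates. The ranges overlapped, with Nfkb2-/- replicate 1 lowest and replicate 2 highest of the 6. WT cells averaged 121 ± 9.001 CPM and Nfkb2-/- cells 114 ± 24.6 CPM (SD, n = 3), with a log2 fold change of -0.08 (SE 0.19, edgeR adjusted p = 0.862). Without Nfkb2-/- replicate 1, the library that stood apart, it was 0.08 (adjusted p = 0.744). Across all genes tested, 1.14% were called (edgeR adjusted p under 0.05 and a fold change over 1.2), 24.7% had no overlap between the genotypes, and 12.7% had none and were higher in Nfkb2-/- cells. Of the 3 family members 1 was called and had no overlap, the one the contrast had selected.

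**Figure D1:**
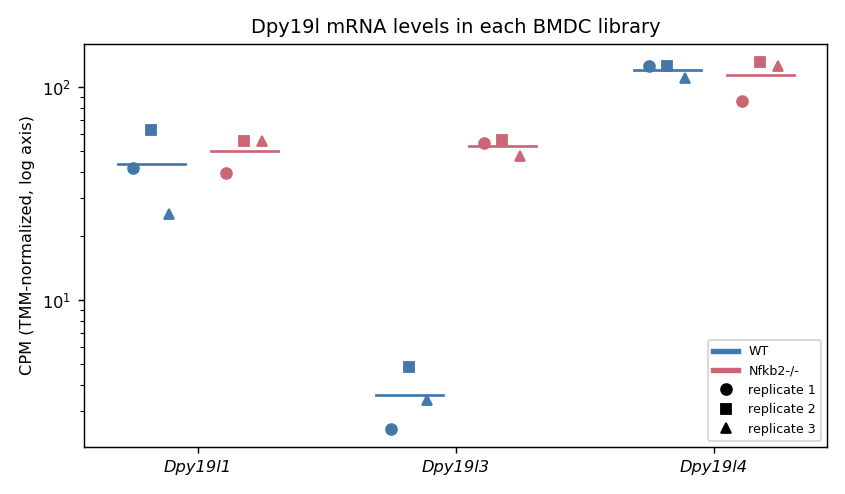
Level of each family gene in CPM (log axis) in the 3 WT and 3 Nfkb2-/- libraries, with 1 point per library and the group means. Dpy19l3 lies between 2.49 and 4.86 CPM in WT and between 47.4 and 56.7 CPM in Nfkb2-/- libraries, while the points of Dpy19l1 and Dpy19l4 overlap between genotypes.

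Levels of different genes were compared per kilobase of annotated exon, with exon unions of 6350 bases for Dpy19l1, 11367 for Dpy19l3 and 8101 for Dpy19l4. The order was Dpy19l4, Dpy19l1, Dpy19l3 and Dpy19l2 in each of the 6 libraries. In WT cells, Dpy19l4 had 14.9 ± 1.11, Dpy19l1 had 6.82 ± 2.97 and Dpy19l3 had 0.315 ± 0.105 CPM per kb (SD, n = 3), and the ranges of these genes did not overlap. In Nfkb2-/- cells the levels were 14.1 ± 3.03 for Dpy19l4, 7.92 ± 1.49 for Dpy19l1 and 4.66 ± 0.430 CPM per kb for Dpy19l3, again without overlap. The distance between Dpy19l1 and Dpy19l3 was thus narrower in the mutant cells, where the lowest Dpy19l1 library had 6.20 and the highest Dpy19l3 library 4.99 CPM per kb. Among all genes tested, the level per kb of Dpy19l3 stood at percentile 22.8 in WT and 66.3 in Nfkb2-/- cells. The corresponding percentiles were 73.8 and 76.8 for Dpy19l1 and 86.4 and 85.8 for Dpy19l4.

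The make-up of the family transcript pool is given as shares of the summed level. Dpy19l3 made up 0.982%, 1.65% and 1.67% of the summed family level per kb in the WT libraries and 22.2%, 16.7% and 14.6% in the Nfkb2-/- libraries. Its mean share was 1.44% ± 0.393 in WT and 17.8% ± 3.90 in Nfkb2-/- cells (SD, n = 3), given without a test because it uses the value that selected the gene. The share of Dpy19l4 was 68.6% ± 8.02 in WT and 52.4% ± 3.13 in Nfkb2-/- cells, and that of Dpy19l1 was 30.0% ± 8.02 and 29.6% ± 1.11 (SD, n = 3). The summed level of Dpy19l1 and Dpy19l4, which leaves Dpy19l3 out, was 21.7 ± 3.95 CPM per kb in WT and 22.0 ± 4.52 CPM per kb in Nfkb2-/- cells (SD, n = 3). With Dpy19l3 included, the family sum was 22.0 ± 3.998 and 26.7 ± 4.39 CPM per kb.

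Ratios within a library do not depend on its size. The ratio of Dpy19l1 to Dpy19l4 per kb was 0.424, 0.636 and 0.292 in WT and 0.585, 0.546 and 0.564 in Nfkb2-/- replicates. The WT ratios were spread on both sides of the mutant ones, which lay close together. The means were 0.451 ± 0.174 and 0.565 ± 0.0193 (SD, n = 3), a difference smaller than the spread in WT (exact permutation test, two-sided, p = 0.4, where 20 splits allow no p below 0.1). The ratio of Dpy19l3 to Dpy19l4 was 0.0212 ± 0.00672 in WT and 0.344 ± 0.0975 in Nfkb2-/- cells (SD, n = 3), a description only.

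**Figure D2:**
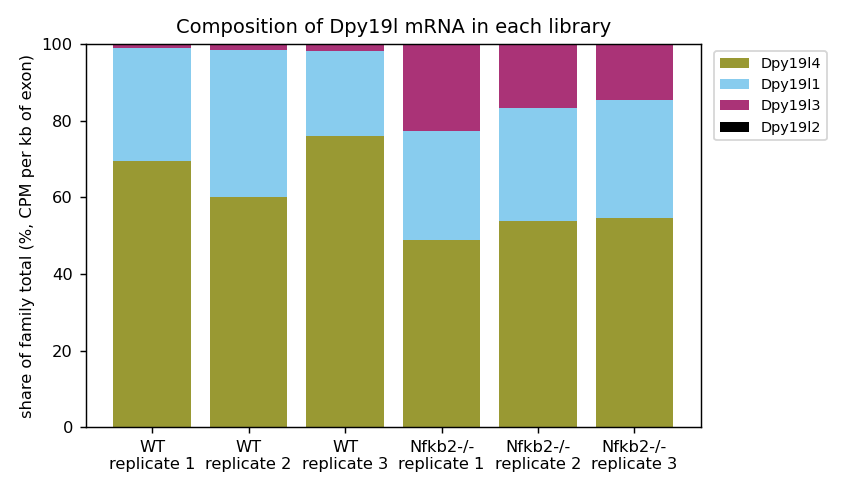
Share of Dpy19l1, Dpy19l2, Dpy19l3 and Dpy19l4 in the summed family level per kilobase of exon (percent, stacked bars from 0) in each of the 6 libraries. The Dpy19l3 segment is at most 1.67% of a WT bar and at least 14.6% of an Nfkb2-/- bar.

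Synthesis of the mannose donor was covered by 14 genes, all of them tested and none called, beside 1.14% of all genes. Their median log2 fold change was 0.05 beside 0.08 over all genes. Among the most abundant members, Pmm2, which converts mannose-6-phosphate to mannose-1-phosphate, had 41.8, 51.9 and 38.0 CPM in WT and 47.4, 40.7 and 45.8 CPM in Nfkb2-/- cells. Mpdu1, needed for use of the donor in the membrane, had 28.8, 30.3 and 31.9 CPM in WT and 30.4, 32.5 and 33.5 CPM in the mutant. Nus1, a subunit of the enzyme that makes the dolichol chain, had 91.9, 92.5 and 67.9 CPM and 81.9, 116 and 111 CPM. The log2 fold changes of these 3 genes were 0.02, 0.08 and 0.29, and their ranges overlapped between genotypes. The genotypes did not overlap for 5 of the 14 members, beside 24.7% of all genes. Mpi, Gmppb, Dolk and Dolpp1 had higher values in Nfkb2-/- cells and Srd5a3 lower ones, named after their values were seen. An unadjusted p under 0.05 in edgeR was seen for 3 of them (Gmppb, Dolk and Dolpp1) beside 17.1% of all genes, and DESeq2 called 1 (Dolpp1) beside 8.60%. The smallest adjusted p among the 14 was that of Dolpp1, a dolichyl pyrophosphate phosphatase gene, at 0.123 (edgeR, log2 fold change 0.84, SE 0.22).

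The other enzymes that draw on the same donor were 15 mannosyltransferase genes and their partners. All were tested and none called, beside 1.14% of all genes, with a median log2 fold change of 0.07. Tmtc2, an O-mannosyltransferase acting on cadherins, had the highest CPM of them and the largest decrease in value. Its WT libraries had 263, 216 and 313 CPM and its Nfkb2-/- libraries 117, 152 and 134 CPM, without overlap, and its log2 fold change of -0.98 (SE 0.19) had an edgeR adjusted p of 0.0625. Tmtc3, of the same O-mannosyltransferase family, had 47.6, 58.0 and 50.7 CPM in WT and 56.0, 79.0 and 76.0 CPM in Nfkb2-/- cells, with overlap. Pigm, which adds the first mannose of the GPI anchor, had 84.5, 83.6 and 64.8 CPM and 65.8, 88.7 and 89.3 CPM, also with overlap. Besides Tmtc2, the genotypes did not overlap for Alg3, with higher mutant values, or for Tmtc4 and Pigb, with lower ones, all 3 named after their values were seen. The edgeR unadjusted p was under 0.05 for 4 genes (Alg3, Tmtc2, Tmtc3 and Tmtc4), and DESeq2 called 3 (Alg3, Tmtc2 and Tmtc4), again beside 17.1% and 8.60% of all genes. The 4 of 15 without overlap stood beside 24.7%. Pofut2 and B3glct, which build the O-linked fucose and glucose disaccharide on the same thrombospondin repeats, had log2 fold changes of -0.03 and -0.29 and overlapped in range, and neither had an unadjusted p under 0.05.

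The oligosaccharyltransferase transfers the lipid-bound precursor of the N-glycan to protein in the same compartment. All 11 tested members had a positive log2 fold change, 0.03 to 1.11 with a median of 0.40. None was called, beside 1.14% of all genes. Over all genes tested, 55.7% had a higher fitted level in Nfkb2-/- cells. The catalytic subunit gene Stt3a had 147, 167 and 116 CPM in WT and 176, 203 and 195 CPM in Nfkb2-/- cells, without overlap (log2 fold change 0.42, SE 0.17, edgeR adjusted p = 0.282). Stt3b, the other catalytic subunit gene, and Magt1 had log2 fold changes of 0.36 and 0.21 with overlapping ranges. The genotypes also did not overlap for Ddost, Rpn1, Rpn2 and Ostc, 4 subunit genes named after their values were seen. These 4 and Stt3a were the 5 with an unadjusted p under 0.05 in edgeR, and DESeq2 called 3 (Ddost, Rpn1 and Ostc). Over all genes, 24.7% had no overlap, 17.1% had such a p and DESeq2 called 8.60%. Rpn1 had 53.1 ± 24.9 CPM in WT and 115 ± 6.18 CPM in Nfkb2-/- cells (SD, n = 3), and Ostc, with the smallest adjusted p of the list at 0.0783 (edgeR), had 25.9 ± 4.63 and 47.3 ± 6.02 CPM (SD, n = 3). Without Nfkb2-/- replicate 1 the median of the 11 genes was 0.43. WT replicate 3, also lowest for the macrophage markers, was the lowest library for Stt3a, Stt3b, Ddost, Rpn1, Rpn2 and Ostc. For Rpn1 the WT libraries had 50.6, 79.2 and 29.5 CPM. The same library was the highest WT library for Dad1, Ost4, Tmem258, Krtcap2 and Magt1. The part of WT replicate 3 in these fold changes was not tested.

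**Figure D3:**
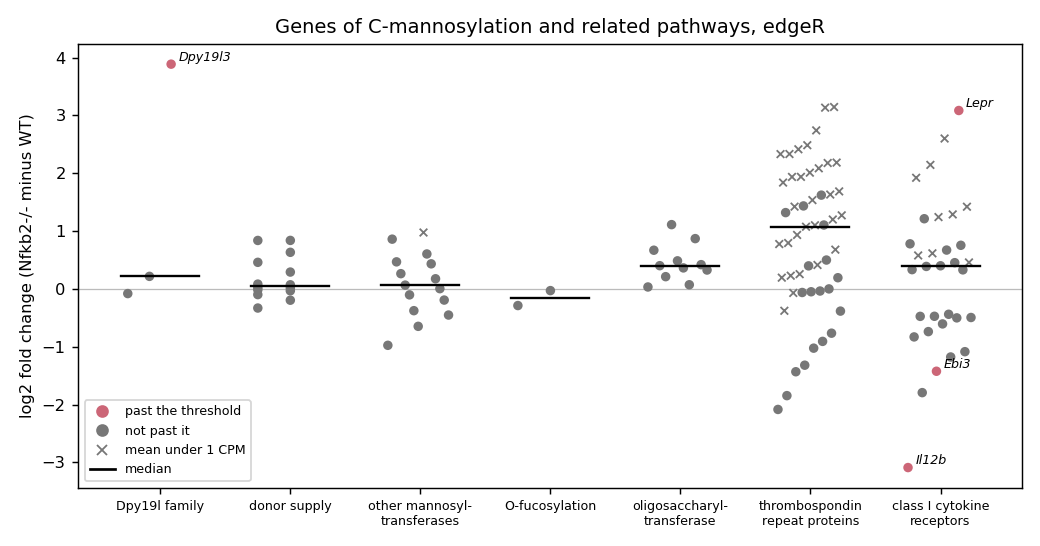
Log2 fold change (Nfkb2-/- against WT) of each tested gene of the pathway and acceptor lists, 1 point per gene, with list medians and a line at 0. The median of all genes tested was 0.08 and is not drawn. The 11 oligosaccharyltransferase genes lie above 0, the thrombospondin repeat list spreads from -2.08 to 3.14 and the class I cytokine receptors from -3.09 to 3.08.

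Proteins with thrombospondin type 1 repeats, the main acceptors of C-mannose, were covered by 62 genes. Of these, 51 were tested and none was called, beside 1.14% of all genes. Thbs1, which encodes thrombospondin 1, was the most abundant, with 1330, 962 and 504 CPM in WT and 156, 222 and 282 CPM in Nfkb2-/- cells. These groups did not overlap, and the log2 fold change was -2.08 (SE 0.39, edgeR adjusted p = 0.0568). Cfp, which encodes the complement regulator properdin, had 102, 144 and 24.9 CPM in WT and 224, 253 and 257 CPM in Nfkb2-/- cells, again without overlap. Its log2 fold change was 1.44 (SE 0.54, edgeR adjusted p = 0.236), and WT replicate 3, its lowest library, was also lowest for the macrophage markers. Ccn3, a matricellular protein gene, had 3.25, 56.7 and 4.06 CPM in WT and 47.3, 69.4 and 80.0 CPM in Nfkb2-/- cells, with WT replicate 2 inside the mutant range (log2 fold change 1.62, SE 1.02). Of the 7 genes without overlap, Cfp and C8a were higher and Thbs1, Adamts7, Adamts9, Adamtsl4 and Unc5c lower in Nfkb2-/- cells, the genes other than Thbs1 and Cfp being named after their values were seen. The same 7 had an unadjusted p under 0.05 in edgeR, and DESeq2 called 4 (Thbs1, Adamts7, Adamtsl4 and Unc5c), where 24.7%, 17.1% and 8.60% of all genes had no overlap, such a p and a DESeq2 call. The list's median log2 fold change was 1.08, but 34 of the 51 genes were highest in Nfkb2-/- replicate 1. Without that library the median over the 30 genes still tested was -0.85, and over the 19 genes that averaged 1 CPM or more over the 6 libraries it was -0.05.

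Class I cytokine receptors, whose WSxWS motif is a further acceptor, were covered by 34 genes with 32 tested, of which 1 was called higher and 2 lower. Of all genes tested, 0.453% were called higher and 0.682% lower. Lepr, the leptin receptor, rose from 2.04, 6.89 and 2.13 CPM in WT to 23.8, 29.0 and 40.9 CPM in Nfkb2-/- cells (log2 fold change 3.08, SE 0.52, edgeR adjusted p = 0.0478). Ebi3, the receptor-like subunit of IL-27 and IL-35, fell from 30.6, 33.96 and 46.0 CPM to 12.9, 14.2 and 14.1 CPM (log2 fold change -1.42, SE 0.19, edgeR adjusted p = 0.0332). Il12b, the p40 subunit of IL-12 and IL-23, fell from 110, 32.7 and 153 CPM to 10.6, 13.7 and 10.4 CPM (log2 fold change -3.09, SE 0.53, edgeR adjusted p = 0.0489). Both genes that fell encode secreted cytokine subunits that share the receptor fold, not membrane receptors. Lepr and Il12b were not called without WT replicate 3, and none of the 3 was called without WT replicate 1 or without any one of the Nfkb2-/- libraries, each of which left 0 called genes in the whole table.

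The 3 most abundant receptor genes were not called. Il7r, the IL-7 receptor, had 456, 318 and 529 CPM in WT and 194, 275 and 263 CPM in Nfkb2-/- cells, without overlap (log2 fold change -0.83, edgeR adjusted p = 0.143). Csf2rb, the shared beta chain of the GM-CSF receptor, had 2826, 1943 and 2900 CPM in WT and 1942, 1799 and 1784 CPM in Nfkb2-/- cells, where WT replicate 2 and Nfkb2-/- replicate 1 almost met (log2 fold change -0.47, adjusted p = 0.321). Its close paralog Csf2rb2 had 1180, 850 and 1221 CPM and 796, 809 and 794 CPM (log2 fold change -0.44, adjusted p = 0.3004). Reads of these paralogs may be split by the counting, so the values of each are uncertain. Csf2ra, another chain of the GM-CSF receptor named after its values were seen, went the other way. It had 159, 137 and 106 CPM in WT and 269, 185 and 186 CPM in Nfkb2-/- cells, without overlap. Its log2 fold change was 0.67 (SE 0.22, edgeR adjusted p = 0.189). The list had 14 members without overlap, 6 higher and 8 lower in Nfkb2-/- cells, beside 24.7% of all genes. An unadjusted p under 0.05 in edgeR was seen for 14 members beside 17.1% of all genes. DESeq2 called 8 beside 8.60% of all genes, with Lepr and Il27ra higher and Ebi3, Il12b, Il6st, Il7r, Il23r and Csf3r lower, those outside the naming rule being named after their values were seen. Its median log2 fold change was 0.39 over the 32 genes, -0.44 without Nfkb2-/- replicate 1 over the 27 genes still tested, and -0.47 over the 23 genes that averaged 1 CPM or more.

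Genes next to the family members on the chromosome were described because position had no part in the selection. Within 250 kb of the 3 genes, 19 genes were tested and 0 were called by edgeR, 2 had an unadjusted p under 0.05 and 1 (Rad54b) was called by DESeq2. The shares over all genes were 1.14% called by edgeR, 8.60% called by DESeq2 and 17.1% with an unadjusted p under 0.05. Zfp507, a zinc finger gene 17.9 kb on the upstream side of Dpy19l3, had 1.47, 0.892 and 0.895 CPM in WT and 2.92, 2.67 and 0.898 CPM in Nfkb2-/- cells, with overlap (log2 fold change 0.98, SE 0.51, edgeR adjusted p = 0.384). Pdcd5, 37.6 kb on the other side, had 7.57, 6.58 and 12.5 CPM and 6.62, 10.1 and 8.70 CPM, also with overlap (log2 fold change -0.07, adjusted p = 0.928). Of the 8 genes tested within 250 kb of Dpy19l3, 0 were called. Their log2 fold changes ran from -0.07 to 2.65 with a median of 0.675, beside 0.08 over all genes. The largest was that of Tdrd12 (SE 0.94, edgeR unadjusted p = 0.0252, adjusted p = 0.213). Tdrd12 had at most 0.166 CPM in WT and at least 0.262 CPM in Nfkb2-/- cells, and was highest in Nfkb2-/- replicate 1. Slc7a9 and Rgs9bp, with log2 fold changes of 1.63 and 0.89, were also highest in that library. These 2 genes and Tdrd12 averaged under 1 CPM over the 6 libraries. Ankrd27, Pdcd5, Cep89, Nudt19 and Zfp507 averaged over 1 CPM and had log2 fold changes of -0.07, -0.07, 0.32, 0.46 and 0.98. A link between these values and the level of Dpy19l3 was not tested.

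Beside Dpy19l1, the divergent noncoding gene Gm47772 began 0.309 kb away and had a log2 fold change of 0.27 (SE 0.67, edgeR adjusted p = 0.867), with levels of 0.344 to 0.861 CPM. On its other side, Bmper lay 927 kb away with a log2 fold change of -0.03. Beside Dpy19l4, the Integrator subunit gene Ints8, 7.06 kb away, had 61.8, 61.8 and 64.0 CPM in WT and 43.9, 60.0 and 54.9 CPM in Nfkb2-/- cells, without overlap (log2 fold change -0.24, adjusted p = 0.485). Esrp1, 9.80 kb away, was at most 1.21 CPM in any library and had 0 counts in WT replicate 3 and Nfkb2-/- replicate 2. The genotypes did not overlap for 4 of the 19 neighbours beside 24.7% of all genes, namely Ints8, Tdrd12, Trp53inp1 and Rad54b, the last 3 named after their values were seen. Cdh17, the gene with the smallest p of all, lay 436 kb from Dpy19l4 and outside this window, with 0.308, 0.185 and 0.344 CPM in WT and 7.15, 6.43 and 6.88 CPM in Nfkb2-/- cells.

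**Figure D4:**
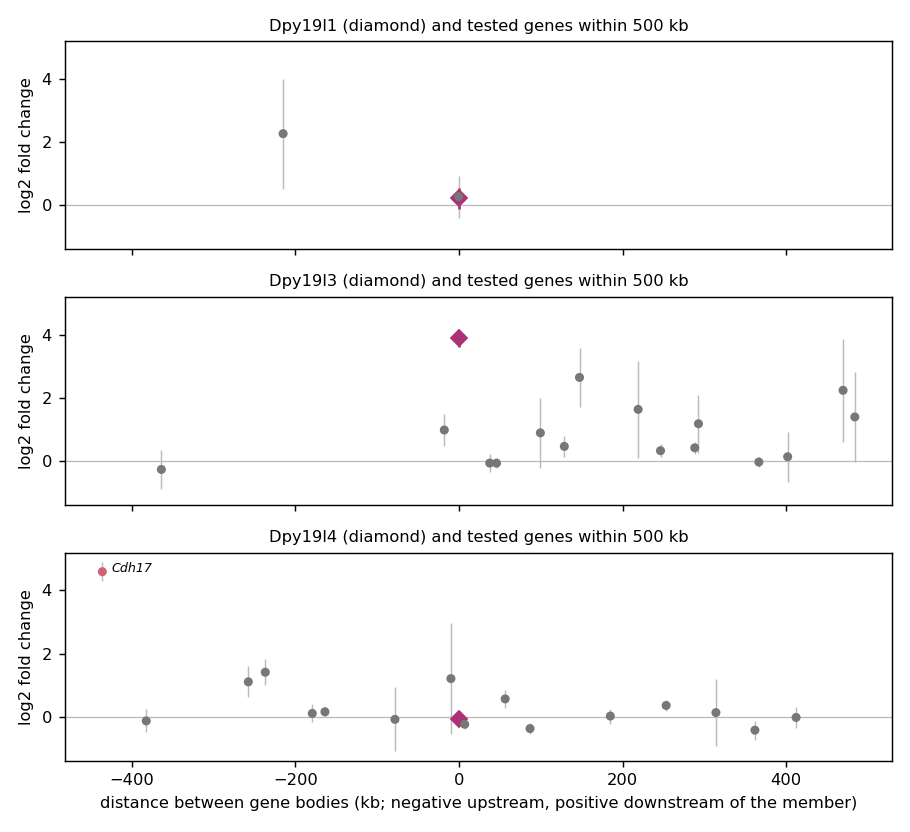
Log2 fold change (Nfkb2-/- against WT) of the genes tested around Dpy19l1, Dpy19l3 and Dpy19l4, plotted against distance from the member in kilobases. Dpy19l3 stands at 3.89 with no called gene within 250 kb, and Cdh17 stands at 4.59, 436 kb from Dpy19l4.

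The pattern of each member over the 6 libraries was compared with that of the 11064 genes at 5 CPM or more on average in either genotype, by Pearson's r of log2 CPM. These coefficients describe 6 shared libraries in 2 genotypes and carry no test. For Dpy19l3 the 5 highest were Ube2t, Bbs9, Mars, Tmco3 and Mthfd1, with r from 0.995 to 0.998, and 233 genes had an r over 0.95. Ube2t, a ubiquitin-conjugating enzyme gene, had 2.15 ± 0.294 CPM in WT and 6.24 ± 0.279 CPM in Nfkb2-/- cells (SD, n = 3), and Bbs9, a cilium gene, had 13.2 ± 1.16 and 29.6 ± 0.911 CPM (SD, n = 3). Their log2 fold changes were 1.54 and 1.16, and those of the other 3 were 0.87 for Mars, 0.46 for Tmco3 and 0.64 for Mthfd1, all smaller than that of Dpy19l3. A coefficient compares shapes over the libraries and not sizes.

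For Dpy19l1 the 5 genes were Atf6, Fgd4, Tfec, Gm37648 and Lamtor3, with r from 0.991 to 0.994, and 145 genes had an r over 0.95. Like Dpy19l1 they were all lowest in WT replicate 3 and highest in WT replicate 2. Atf6, a transcription factor gene of the endoplasmic reticulum stress response, had 61.9, 71.7 and 47.5 CPM in WT and 59.9, 70.4 and 69.6 CPM in Nfkb2-/- cells. For Dpy19l4 they were Mob1b, Osbpl8, Dennd6a, Gm44562 and Gm44164, with r from 0.994 to 0.995 and 157 genes over 0.95. All 5 were lowest in Nfkb2-/- replicate 1, the library that stood apart. Mob1b, for example, had 160, 165 and 142 CPM in WT and 103, 177 and 169 CPM in Nfkb2-/- cells. None of the 5 genes most like Dpy19l1 or of those most like Dpy19l4 was called. Of those most like Dpy19l3, 2 were called (Ube2t and Bbs9), beside 1.14% of all genes. They were picked for likeness to a gene selected on this contrast, whose pattern separates the genotypes. The difference from the other members therefore carries no further result.

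Markers of cells other than dendritic cells that the cultures could hold were set beside the Dpy19l3 values. The 10 neutrophil markers summed to 105, 179 and 70.7 CPM in WT and 201, 196 and 182 CPM in Nfkb2-/- cells, the only one of these sums without overlap, and edgeR called none of the 9 tested, 4 of which (Ltf, Retnlg, Csf3r and Cxcr2) had an unadjusted p under 0.05 beside 17.1% of all genes. DESeq2 called 3 of the 9 (Ltf and Csf3r lower, Cxcr2 higher) beside 8.60% of all genes. The sum was led by S100a8 and by Cxcr2, which had 5.90 ± 5.48 CPM in WT and 83.2 ± 15.7 CPM in Nfkb2-/- cells (SD, n = 3), while 7 of the 9 tested genes had lower fitted levels in the mutant. Over the 10 genes, the highest value in any library ran from 0.414 CPM for Elane to 98.8 CPM for S100a8, and none was at 0 in all libraries. Among the dendritic cell markers, Itgax (CD11c) was the 1 called of 10, at 160, 277 and 123 CPM in WT and 745, 769 and 716 CPM in Nfkb2-/- cells (edgeR adjusted p = 0.0414). Of all genes tested, 1.14% were called. An unadjusted p under 0.05 in edgeR was seen for 4 of the 10, beside 17.1% of all genes. Itgax and Cd86 were higher and Zbtb46 and Ccr7 lower in the mutant. DESeq2 called 1 of the 10 (Itgax) beside 8.60% of all genes. The genotypes did not overlap for 3 (Itgax, Cd86 and Zbtb46) beside 24.7% of all genes. Fitted levels were higher in the mutant for 6 of the 10 and lower for 4. Mast cell and basophil markers, led by Kit and Cpa3, summed to 47.5 to 57.3 and 50.1 to 57.8 CPM, with 1 of 7 tested called (Cpa3, lower). DESeq2 called 2 of the 7 (Cpa3 lower, Gata2 higher) beside 8.60% of all genes. The same 2 had an unadjusted p under 0.05 in edgeR beside 17.1% of all genes. Stromal and epithelial markers, led by Col1a2 and Col1a1, summed to 13.5 to 60.3 and 19.1 to 40.9 CPM. Erythroid markers, led by Alas2 and Slc4a1, summed to 4.47 to 6.10 and 5.74 to 9.66 CPM, highest in Nfkb2-/- replicate 1 and with none called. The part of any of these cells in the Dpy19l3 values was not tested.

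The log2 fold change of Dpy19l3 ran from 3.68 to 4.17 over 12 alternatives. Since its p-value selected the gene, its calls lend no support, and as a limit it was not called with the replicate number as a block, or without WT replicate 1 or any one Nfkb2-/- library, settings under which edgeR called 0 genes of the whole table and 2325 to 4088 had an unadjusted p under 0.05. Dpy19l1 and Dpy19l4 were called in none of the 12, with log2 fold changes of -0.05 to 0.58 and -0.21 to 0.08.

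**Figure D5:**
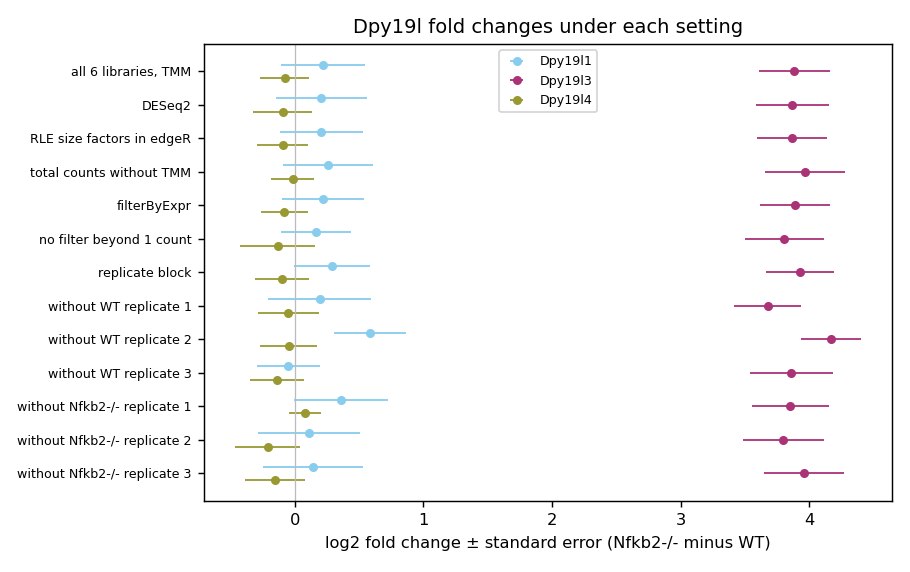
Log2 fold change (Nfkb2-/- against WT) with its standard error for Dpy19l1, Dpy19l3 and Dpy19l4 in the fit with all libraries and under each of 12 alternatives. Dpy19l3 stays between 3.68 and 4.17, and both other genes stay between -0.21 and 0.58.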

How the data were processed

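RNA-seq libraries of WT and Nfkb2-/- BMDCs, 3 of each genotype, were grouped by their sample labels. The authors deposited raw counts per Ensembl gene and library, without normalization. The submitters' processing notes name HISAT2 and GRCm38/mm10. The counting tool, its annotation and the use of strand were not given in the sources used here. A joint table with the same values was not used.

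Genes with a name in GENCODE M21 and at least 50 counts over the 6 libraries were kept. The IDs without a name held 1.01% to 1.75% of a library's counts and stayed out of library sizes and tests. Counts were TMM-normalized and compared with glmQLFit and glmQLFTest of edgeR 4.0.16 in R 4.3.3, without covariates. A gene was called at a Benjamini-Hochberg adjusted p under 0.05 over all genes tested and a fold change over 1.2. The SE is the log2 fold change divided by the square root of F. Levels per kb used the union of exons in M21. The floor of 3 counts was 0.0561 to 0.103 CPM per library and covers counting error only. For well-counted genes counting error was small beside the spread between cultures (common dispersion 0.219). For genes with only a few counts per library it was not.

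The family members, gene lists and tests were chosen with earlier results of these data known. Genes named were the family and Nfkb2, from each pathway list those called and the 3 most abundant, the nearest named gene with at least 50 counts on each side of a member, any called gene within 250 kb, the neighbours of Dpy19l3 in the order of p-values, the 5 genes most correlated with each member (prior count 2) and the 2 most abundant of each marker list. Genes named outside this rule were chosen after their values were seen. Tusc3 of the oligosaccharyltransferase list was not analysed here. Planned protein comparisons were not made. The lymphocyte marker list is not reported here.

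Replicate numbers were not taken as pairs in the main fit. The correlations given below do not settle whether they mark pairs, so the number was a block in 1 alternative. The tests were tested on simulated counts of 20888 genes for the genotype comparison. edgeR found 75 of 100 genes changed by 2 and 89 of 100 changed by 3 on the log2 scale, with 11 unchanged genes among 175 called. DESeq2 found 86 of 100 and 96 of 100, with 77 unchanged genes among 259 called. Unchanged genes were thus a larger part of the DESeq2 calls than of the edgeR calls. Alternatives were DESeq2 1.42.0, its size factors in edgeR (RLE), no TMM, filterByExpr, no filter beyond 1 count, the replicate block, fits without each single library, other lengths, windows of 100 and 500 kb, and Spearman correlation with a prior count of 0.5.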

Additional observations from a re-analysis of the deposited data

How the results depend on the processing

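Over all genes tested, 248 were called. DESeq2 called 1878, filterByExpr 397 and no filter beyond 1 count 1625, and leaving out 1 library gave 0 to 1248 (1248 without WT replicate 2, 270 without WT replicate 3 and 0 without any other, where edgeR's unadjusted p was under 0.05 for 2325 to 4088 genes). Of the pathway and acceptor lists, 3 genes were called. DESeq2 called 19, filterByExpr 5, no filter beyond 1 count 16, and leaving out 1 library gave 0 to 13. Without TMM there were again 3, of which 2 were the same. Same-numbered WT and Nfkb2-/- libraries correlated at 0.262, 0.148 and 0.0224 in their deviations from the group means. Libraries with different numbers correlated at -0.237 to 0.164. Not every library correlated best with its own number, and so few libraries cannot settle whether the numbers mark pairs. With the replicate block, 0 genes were called over all genes and 0 in the lists (3331 had an unadjusted p under 0.05 in edgeR), and Dpy19l3 had a log2 fold change of 3.93 (edgeR adjusted p = 0.0589).

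Leaving out 1 library gave log2 fold changes of 3.68 to 4.17 for Dpy19l3, -0.05 to 0.58 for Dpy19l1 and -0.21 to 0.08 for Dpy19l4. The edgeR adjusted p of Dpy19l3, which lends no support because the gene was selected on this contrast, was 0.103 without WT replicate 1 and 0.0816, 0.10001 and 0.0656 with Nfkb2-/- replicate 1, 2 or 3 left out. The sign turned for Dpy19l1 at -0.051 without WT replicate 3 and for Dpy19l4 at 0.079 without Nfkb2-/- replicate 1. The cause was not tested. Without division by length, Dpy19l3 made up 2.14% of the family in WT and 24.8% in Nfkb2-/- cells, and Dpy19l1 23.0% in the latter. With the longest protein-coding transcript, a choice added after seeing the data, Dpy19l1 made up 30.9% and Dpy19l4 49.2% in Nfkb2-/- cells. A window of 500 kb held 1 called neighbour (Cdh17) in place of 0.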
